A study of Mus musculus with 4 samples.

Results

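The translation initiation factor genes are the 56 protein-coding genes of the mouse GRCm38.p6 gene table whose symbols begin with Eif1, Eif2, Eif3, Eif4, Eif5 or Eif6, of 21775 protein-coding genes in all. Membership rests on the symbol alone, though the list was chosen with earlier results of these data known. Going by symbol, the list also holds regulators and relatives of the factors, such as the eIF2 kinases, the 4E-binding inhibitors and Eif4a3. The study profiled haematopoietic stem cells, taken from the marrow of mice with wild type Ppp2ca, in 4 CUT&Tag libraries, and its labels name no treatment. CUT&Tag uses an antibody to tether a transposase, which cuts adapters into DNA near the antibody target. Of the libraries, 2 were made with an antibody to PPP2CA, the alpha form of the catalytic subunit of protein phosphatase 2A, and 2 with control immunoglobulin G (IgG), and the design text gives 100000 cells for the preparation. The labels give neither the age, sex nor strain of the mice, nor say if separate animals were used for the replicates, whose spread may thus be technical alone.

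Initiation factors bring the small ribosomal subunit, the initiator tRNA and the messenger RNA together. As background, eIF2 carries the initiator tRNA, eIF3 and eIF1 hold the small subunit ready for scanning, and eIF4E, eIF4G and eIF4A recognise the cap and unwind the leader. Phosphorylation is a main control of the process: kinases that phosphorylate eIF2 block its recycling by eIF2B, and unphosphorylated 4E-binding proteins sequester eIF4E. Blood stem cells are known for a low rate of protein synthesis compared with the progenitors they give rise to.

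A gene is called marked here when a region found in both PPP2CA libraries, and without a peak of either IgG library, lay within 1 kb of either boundary of the gene, inside or outside it. The PPP2CA lists held 16811 and 17686 peaks and the IgG lists 561 and 310. Peak summits had a median of 18 fragments with the PPP2CA antibody and 4 with IgG, in both replicates, over backgrounds that were 9.34 to 9.61 times apart. Of the marker genes of cell types, 5 of 12 stem cell genes were marked (Kit, Mecom, Meis1, Runx1 and Tal1), 1 of 8 lymphoid (Cd3d), 1 of 8 myeloid (S100a9), 4 of 7 erythroid and megakaryocyte (Epor, Itga2b, Klf1 and Pf4) and 1 of 6 stromal and endothelial (Kdr). The stem cell share, 41.7%, was near the 39.5% of all protein-coding genes that were marked. Procr, Slamf1, Cd34, Ly6a, Hlf and Gata2 were among the stem cell genes with no such region, and a region at a gene does not measure its expression. Because the smallest p of an exact permutation test (two-sided) is 0.333 for 2 libraries against 2, no test between antibodies is given. Intervals printed below are 95% exact Poisson ones. They hold counting error alone, and PCR copies of a fragment are not independent molecules. In bulk libraries such as these, fewer cells with a signal and less signal per cell cannot be told apart.

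The sequences below are the bases just before the gene start at the best-ranked initiation factor genes, with Eif4a3 and its unmarked copy Eif4a3l1 for contrast. Eif1ad and Eif2a rank among them but are not shown, because these bases lie inside a neighbouring gene. Eif4g2, also among the best-ranked, is not shown because it has no entry in the promoter table. The sequences are shown because the regions described here lie at gene starts and because the sequences differ in CpG content and motifs. Each runs 5′ to 3′ on the strand of the gene and ends at the gene boundary. It holds up to 150 bases, fewer where another gene begins or the promoter table ends. The letters come from RefSeq, build GRCm38.p6, and capitals mark matches to the motifs named after the list, on either strand.
Eif1, chr11:100319799-100319948, plus strand: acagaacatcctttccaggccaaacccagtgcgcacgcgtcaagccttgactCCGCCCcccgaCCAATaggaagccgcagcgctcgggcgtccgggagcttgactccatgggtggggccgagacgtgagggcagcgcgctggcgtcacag
Eif4a1, chr11:69672424-69672573, minus strand: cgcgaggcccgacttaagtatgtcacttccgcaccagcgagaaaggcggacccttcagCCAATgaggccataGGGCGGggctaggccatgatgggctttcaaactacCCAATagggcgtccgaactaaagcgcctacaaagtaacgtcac
Eif5, chr12:111537951-111538100, plus strand: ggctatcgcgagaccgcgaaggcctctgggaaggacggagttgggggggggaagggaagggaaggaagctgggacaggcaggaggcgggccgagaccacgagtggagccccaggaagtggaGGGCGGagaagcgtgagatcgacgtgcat
Eif4ebp2, chr10:61452791-61452919, minus strand: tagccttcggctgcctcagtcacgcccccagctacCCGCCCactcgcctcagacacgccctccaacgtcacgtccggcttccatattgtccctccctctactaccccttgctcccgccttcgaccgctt
Eif2s1, chr12:78862009-78862071, plus strand: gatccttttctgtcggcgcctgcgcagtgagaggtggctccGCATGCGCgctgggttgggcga
Eif3j1, chr2:122028430-122028579, plus strand: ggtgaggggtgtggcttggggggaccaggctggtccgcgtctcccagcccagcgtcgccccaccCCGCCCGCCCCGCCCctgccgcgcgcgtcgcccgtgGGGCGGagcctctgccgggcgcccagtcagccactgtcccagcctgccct
Eif4a2, chr16:23107318-23107467, plus strand: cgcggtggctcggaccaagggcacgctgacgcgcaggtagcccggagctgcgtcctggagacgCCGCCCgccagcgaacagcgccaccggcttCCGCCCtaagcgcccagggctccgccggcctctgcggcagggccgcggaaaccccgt
Eif5b, chr1:37997860-37998009, plus strand: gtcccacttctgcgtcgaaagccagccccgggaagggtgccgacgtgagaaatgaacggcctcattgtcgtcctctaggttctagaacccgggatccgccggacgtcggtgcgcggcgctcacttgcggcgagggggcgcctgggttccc
Eif4g1, chr16:20672570-20672719, plus strand: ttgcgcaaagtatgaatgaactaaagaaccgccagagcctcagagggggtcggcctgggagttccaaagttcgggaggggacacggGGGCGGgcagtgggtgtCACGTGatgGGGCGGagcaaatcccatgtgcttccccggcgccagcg
Eif4a3, chr11:119300044-119300193, minus strand: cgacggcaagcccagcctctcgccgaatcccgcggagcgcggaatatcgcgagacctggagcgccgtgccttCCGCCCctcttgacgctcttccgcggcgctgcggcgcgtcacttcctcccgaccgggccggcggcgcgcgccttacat
Eif4a3l1, chr6:136327389-136327538, plus strand: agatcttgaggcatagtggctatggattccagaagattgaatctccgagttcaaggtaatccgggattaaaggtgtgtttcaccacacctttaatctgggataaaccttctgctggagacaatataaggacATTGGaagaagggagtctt

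Promoter windows of 300 bases, from 250 before to 50 after a start, were listed for 44 of the 56 genes. Each gene was given the start nearest its outer boundary. The 12 without an entry were Eif1a, Eif2b3, Eif3e, Eif3h, Eif3i, Eif3j2, Eif4e1b, Eif4e3, Eif4ebp1, Eif4ebp3, Eif4g2 and Eif6. The windows of the 38 marked members held a median of 24 CpG dinucleotides (9 to 50), against 22 at all 7068 marked protein-coding genes with a window and 5 at the 10423 that were not marked. Those of the 6 unmarked members with a window held a median of 18 (3 to 37). The GC box GGGCGG was in 31 of the 38 windows of marked members (81.6%), against 69.3% of marked genes and 46.3% of all 17491 windows. The ETS core CCGGAA was in 17 (44.7%, against 32.1% and 19.1%) and the E-box CACGTG in 8 (21.1%, against 11.0% and 7.91%). The CCAAT box CCAAT was in 13 (34.2%, against 40.2% and 39.2%). Each motif was searched on both strands. The AP-1 motif TGANTCA was in 5 windows (13.2%, against 3.79% and 7.03%), the YY1 motif AAGATGGC in 4 (10.5%, against 5.4% and 3.21%) and the TATA motif TATAAA in 4 (10.5%, against 6.20% and 13.3%). The NRF1 motif GCGCATGC was in 3 (7.89%, against 6.20% and 3.60%) and the cAMP response element TGACGTCA in 0 (against 3.93% and 2.33%). Matched letters are a description and not a bound site.

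At the genes themselves these letters varied. Eif3j1 carried 4 GC box matches in its printed stretch, 3 of them overlapping. Eif4a1 had CCAAT boxes 92 and 43 bases before its start on either side of a GC box, and Eif4g1 had an E-box between a pair of GC boxes. Eif5b held none of the 9 motifs in its window. Eif4a3l1, a near copy of Eif4a3 by name, had 3 CpG in its window, the fewest of the 44, against 42 at Eif4a3. Its printed stretch held a single match, ATTGG, the CCAAT box read on the other strand.

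PPP2CA regions marked 47 of the 56 initiation factor genes (83.9%), against 39.5% of all protein-coding genes. A further gene, Eif4g3, had a region in its body only, so that 48 (85.7%) had a region at a boundary or in the body, against 45.3% of all. Of the other 8, Eif2ak2, Eif2d, Eif3g and Eif4e3 had peaks in 1 PPP2CA library only, Eif5a had a region that carried an IgG peak, and Eif3j2, Eif4a3l1 and Eif4ebp3 had no peak in any of the 4 lists. Regions stood at both boundaries of 3 of the 56 members (Eif4a1, Eif4g1 and Eif6), against 618 of all 21775 genes (2.84%). Only marked genes can have them, and those were 47 of the members and 8606 of all genes. These shares describe the list as it was chosen. The genes were not matched with others on expression, base composition or open chromatin, and the part of these in the shares was not tested. The median summit of the best region of a marked member held 36 and 40 fragments in PPP2CA 1 and 2, against 29 and 32 over all 8606 marked genes. The median fold over local background, a value the authors deposited for each peak, was 7.92 and 8.25, against 7.08 and 7.03. The regions had a median width of 1084 bp (560 to 1741) against 1026 bp.

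**Figure D1:**
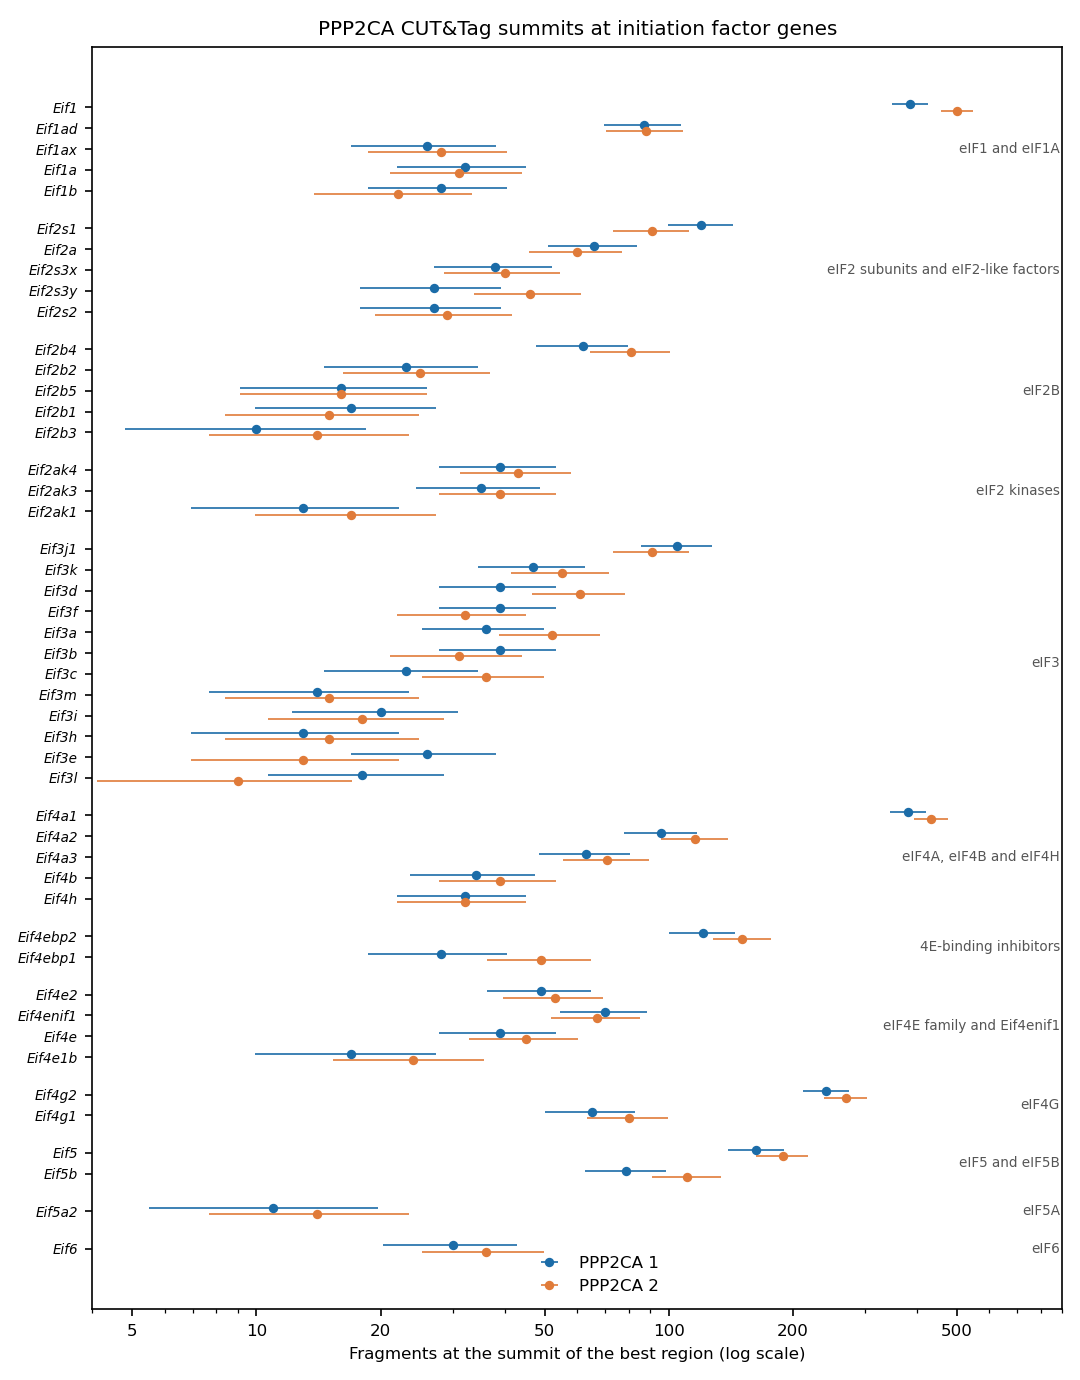
Fragments at the summit of the best region (log axis) for the 47 marked initiation factor genes, in PPP2CA 1 (blue) and PPP2CA 2 (orange), grouped by factor and ordered by rank; bars are exact 95% Poisson intervals, which cover counting error only. Eif1 and Eif4a1 hold 381 to 502 fragments, while eIF2B genes other than Eif2b4 hold 10 to 25.

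The members spread over the whole range of strength, and the factor groups differed in where they lay. All marked protein-coding genes were ranked by the lower-placed of their within-library ranks of −log10 q. Of the 47 members 16 (34.0%) fell among the best 25% of marked genes, 16 in the next 25%, 8 (17.0%) in the 25% after that and 7 (14.9%) in the last 25%. The median marked member of the eIF5 and eIF5B pair was outranked by 6.47% of marked genes. That of eIF4G was outranked by 8.92% and that of the eIF4A, eIF4B and eIF4H group by 18.7%. The median eIF2B gene stood lower, with 72.7% of marked genes ranked better, and the median marked eIF3 gene lay at 50.2%. Unmarked members have no such rank and are left out, as Eif4g3 is from eIF4G, whose median rests on 2 genes. Groups hold 1 to 14 genes, and these positions are descriptions with no test.

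**Figure D2:**
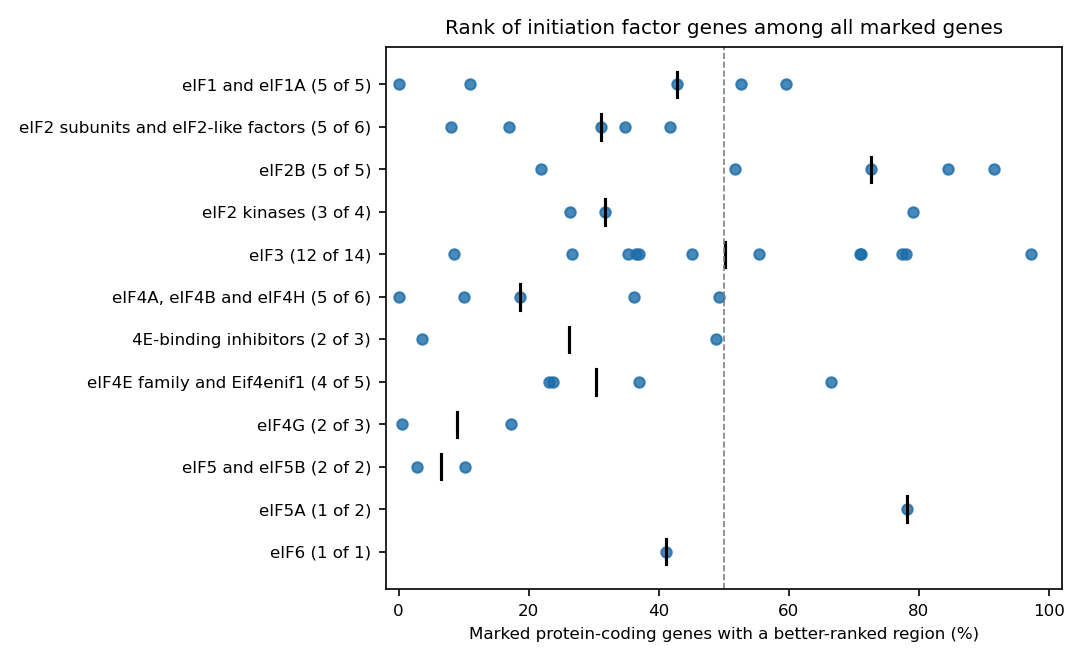
Share of all marked protein-coding genes with a better-ranked region (percent), 1 point per marked member, by factor group; black bars are group medians, the dashed line is 50%, and brackets give marked of all members. The eIF4G and eIF5 groups lie near the left end and eIF2B mostly on the right, while eIF3 spans 8.44 to 97.2%.

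The eIF1 and eIF1A genes, which act in scanning and in the choice of the start codon, were marked at 5 of 5. Eif1 had rank 4 among all 8606 marked genes. It lies on chromosome 11 at 100319949 to 100322099, and its region, at 100319722 to 100320768, spanned the gene start. The summit held 385 fragments (interval 347 to 425) in PPP2CA 1 and 502 (459 to 548) in PPP2CA 2, with a fold of 11.7 and 12.4. Summits lay 312 and 242 bp downstream of the start. Eif1b, the close relative of Eif1, was at the other end of the group with 28 and 22 fragments and intervals that do not meet those of Eif1 in either library. Eif1ad, which encodes an eIF1A domain protein, had 87 and 88 fragments in a region that also touched its neighbour Banf1. Of the eIF1A genes proper, Eif1a had 32 and 31 fragments and the X-linked Eif1ax 26 and 28, with overlapping intervals.

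Genes of eIF2, the carrier of the initiator tRNA, were marked at 5 of 6 with the eIF2-like factors counted in. Eif2s1, the alpha subunit that the stress kinases phosphorylate, led them with 120 fragments (99.5 to 143) in PPP2CA 1 and 91 (73.3 to 112) in PPP2CA 2. Its region, on chromosome 12 at 78860932 to 78862337, touched the window of Atp6v1d as well. Eif2a, an alternative initiation factor that is not an eIF2 subunit, followed with 66 and 60 fragments, in a region shared with Serp1. The beta subunit gene Eif2s2 had 27 and 29. The gamma subunit has a copy on each sex chromosome, and both were marked: Eif2s3x held 38 and 40 fragments and Eif2s3y 27 and 46. How reads that match several places were treated is not given here, so the split between such near copies is uncertain. Eif2d, which can also deliver initiator tRNA, had peaks of 11 fragments in PPP2CA 1 alone, 1 at its start and 1 in its body.

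All 5 genes of eIF2B, the exchange factor that reloads eIF2 with GTP, were marked, 4 of them weakly. Eif2b4 had 62 and 81 fragments, in a region shared with Snx17. The other genes held 23 and 25 (Eif2b2), 16 and 16 (Eif2b5), 17 and 15 (Eif2b1) and 10 and 14 (Eif2b3). In both libraries the interval of Eif2b4 lay above those of the other 4 genes, which overlapped one another. The Eif2b1 region also touched Gtf2h3.

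The kinases that phosphorylate eIF2 were marked at 3 of 4. Eif2ak4 (GCN2, which responds to amino acid shortage) had 39 and 43 fragments and Eif2ak3 (PERK, of the endoplasmic reticulum) 35 and 39. Eif2ak1 (HRI, the haem-regulated kinase) had 13 and 17 at its start and, further in, a second region with 21 and 24 fragments, its summits 75611 and 75667 bp downstream of the start. Eif2ak2 (PKR, which responds to double-stranded RNA) had a peak of 7 fragments at its start in PPP2CA 1 alone. The lowest summit called anywhere in either PPP2CA list held 5 fragments.

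The eIF3 complex, the scaffold on the small subunit, was marked at 12 of 14 genes. Eif3j1, a loosely bound subunit, led with 105 fragments (85.9 to 127) and 91 (73.3 to 112), in a region on chromosome 2 at 122027916 to 122029222. Eif3k had 47 and 55 fragments, in a region shared with Map4k1, and Eif3d, a subunit that can bind the cap, had 39 and 61. Eif3f, Eif3a, Eif3b and Eif3c lay between 23 and 52 fragments. The lower part of the group held Eif3m (14 and 15), Eif3i (20 and 18, shared with Tmem234), Eif3h (13 and 15), Eif3e (26 and 13) and Eif3l (18 and 9). Eif3b had a second region in its body, with 9 and 19 fragments. Eif3g, an RNA-binding subunit, had a peak in PPP2CA 2 alone, of 22 fragments and a fold of 3.23 at its start. The short gene Eif3j2, 2419 bp against 25053 bp for Eif3j1, had no peak in any list.

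The helicase group unwinds the leader of the messenger, and 5 of its 6 members were marked. Eif4a1, its main helicase gene, had rank 12 among all marked genes. The gene lies on chromosome 11 at 69666936 to 69672423 on the minus strand, with the region at 69671211 to 69672675 across its start, which also touched Senp3. The summit held 381 fragments (344 to 421) and 433 (393 to 476), with a fold of 8.85 and 8.69. A second region, at its far end and shared with Cd68, had 78 and 86 fragments at a low fold of 3.44 and 3.42. Eif4a2, its paralogue, held 96 (77.8 to 117) and 116 (95.9 to 139), below Eif4a1 in both libraries with no overlap of intervals. The Eif4a2 fold, 7.82 and 7.60, was closer to that of Eif4a1 than the fragments were. The small nucleolar RNA gene Snord2 also lies in the Eif4a2 region. Eif4a3, which belongs to the exon junction complex, had 63 and 71 fragments, Eif4b 34 and 39, and Eif4h 32 and 32. Eif4a3l1 is 2445 bp long against 11681 bp for Eif4a3, and it had no peak in any list.

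Cap recognition and its control were marked at most genes. Eif4e, the cap-binding protein, had 39 and 45 fragments. Eif4e2, a relative tied to repression, had 49 and 53 fragments, with intervals that overlap those of Eif4e in both libraries. Eif4enif1 (4E-T, which carries eIF4E into the nucleus and to P-bodies) had 70 and 67. The oocyte-type gene Eif4e1b had 17 and 24 fragments, but its region lay beyond the gene, at 54789010 to 54789885 on chromosome 13 against a gene end of 54788459, and touched Tspan17. With a narrower window Eif4e1b was not marked. Eif4e3 had peaks of 11 and 14 fragments in its body, both in PPP2CA 1 alone.

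Of the 4E-binding inhibitors, which block the meeting of eIF4E with eIF4G until mTOR phosphorylates them, Eif4ebp2 was the strongest. It held 121 fragments (100 to 145) and 151 (128 to 177) at a fold of 11.7 and 12.4, in a region on chromosome 10 at 61452351 to 61453228. Eif4ebp1 had 28 (18.6 to 40.5) and 49 (36.3 to 64.8), below Eif4ebp2 in both libraries. Eif4ebp3 had no peak in any list. Of the eIF4G scaffold genes, Eif4g2 (DAP5, a relative that lacks the eIF4E site) ranked 47 of all marked genes with 241 (212 to 273) and 269 (238 to 303). Its region lay at 111082114 to 111083460 on chromosome 7, across the high-coordinate end of the gene. Eif4g1 had 65 and 80 fragments at its start and a second region past its end, shared with Fam131a, with 25 and 30. Eif4g3, the longest gene of the list at 215308 bp, had 14 and 14 fragments in its body and was not marked at a boundary. In PPP2CA 1 alone it had a further body peak of 10 fragments, and in PPP2CA 2 alone 1 of 15. The summit of the PPP2CA 2 peak lay 1751 bp downstream of the outer start of Eif4g3 and 74 bp downstream of another listed start.

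The factors of subunit joining were marked at 2 of 2. Eif5, the GTPase activator of eIF2, had 163 fragments (139 to 190) and 189 (163 to 218). Eif5b, the GTPase of subunit joining, had 79 and 111. The summits near Eif5b lay at -830 and -878 bp from its start (negative is upstream), in a region that also touched Txndc9, whose part cannot be told apart here. Eif6, which keeps the large subunit from joining early, had 30 and 36 fragments at its high-coordinate end and a second region with 35 and 39 beyond its other end, which also touched Mmp24 and BC029722.

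Eif5a, which helps ribosomes past stalling sequences and also acts in termination, was the one member with an IgG peak, 1 of 56 (1.79%), against 2.08% of all protein-coding genes. PPP2CA gave 374 and 425 fragments there (chromosome 11, 69920719 to 69921954), with a fold of 10.0 in both libraries. The IgG 1 peak at 69921327 to 69921621 held 10 fragments (4.80 to 18.4), and IgG 2 had no peak there. Divided by the genome-wide background of its own library, the summit came to 477 and 531 in PPP2CA 1 and 2 and to 119 in IgG 1. The region was left out of the counts for its IgG peak, and without IgG 1 Eif5a was marked, so 1 library decides that call. Eif5a2, the other gene of the pair, was marked weakly, with 11 and 14 fragments.

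IgG depth limits how far the lack of an IgG peak can be read. The lowest summit called in either IgG list held 3 fragments, which the ratio of backgrounds scales to 28.0 to 28.8 fragments in a PPP2CA library. Of the 47 marked members 29 held more than that in both PPP2CA libraries. The other 18 did not exceed it in at least 1 PPP2CA library, and there the lack of an IgG peak says less.

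Regions sat at gene starts. Of the 47 marked members 38 had a known strand, and at all 38 the best region was at the start; the start itself lay inside the region at 37. Over all 7068 marked genes with a known strand, 96.3% had a region at the start. A region at the gene end was found at 2 of these 38 members, Eif4a1 and Eif4g1 (5.26%), against 10.9% of all. The median summit lay at -11 bp from the start in PPP2CA 1 and at 35 bp in PPP2CA 2, against 88 and 90 bp over all marked genes (positive is downstream). Within 250 bp of the start were 29 (76.3%) and 25 (65.8%) of the member summits, against 64.0% and 64.1%. The summits of the libraries were within 100 bp of each other at 27 of the 38 members, and at most 349 bp apart, so small differences in position are within the spread between libraries.

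**Figure D3:**
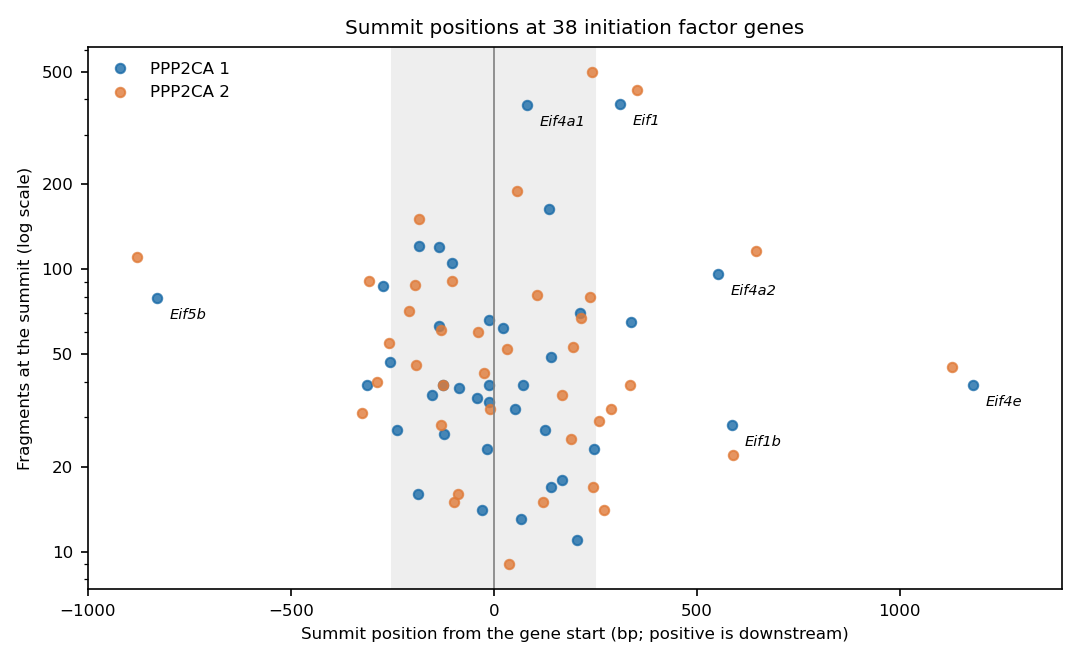
Position of the summit from the gene start (bp, positive downstream) against fragments at the summit (log axis) for 38 marked members with a known strand, in PPP2CA 1 (blue) and PPP2CA 2 (orange); the grey band is 250 bp on each side. Most summits fall in the band, while Eif5b, Eif1b, Eif4a2 and Eif4e are among those outside it in both libraries.

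A few members departed from this position in both libraries. At Eif4e the summits were 1180 and 1128 bp downstream of the outer gene start, and it was the one of the 38 whose region did not cover that start. They lay 103 and 51 bp downstream of another start listed for Eif4e. The same held at Eif5a, where the summits were 578 and 577 bp inside the gene and 6 and 5 bp from another listed start. At Eif4a2 the summits were 552 and 645 bp downstream and at Eif1b 588 and 589 bp, and no start listed for either gene lay nearer. The Eif1b region also touched the window of D830035M03Rik, a long non-coding RNA gene, whose part cannot be told apart here. At Eif4g3 the summits of the body region were 2533 and 2505 bp downstream of the outer start and 856 and 828 bp from the nearest listed one.

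The PPP2CA libraries were compared at each region by an exact binomial test of the summit fragments, scaled by their sums, with Benjamini-Hochberg adjustment over 7506 regions at gene boundaries. This compares the libraries and not conditions, and it can miss small differences. None of the 47 member regions was called (smallest adjusted p = 1 by the exact test), and of all regions 0 were (0%). At an unadjusted p under 0.05 there were 3 member regions (6.38%) and 139 of all regions (1.85%). The 3 were Eif1, higher in PPP2CA 2, and Eif2s1 and Eif3e, higher in PPP2CA 1. The ratio of PPP2CA 2 to PPP2CA 1 ran from 0.5 at Eif3e and Eif3l to 1.75 at Eif4ebp1, with a median of 1.12, near the scale of 1.09 over all regions.

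**Figure D4:**
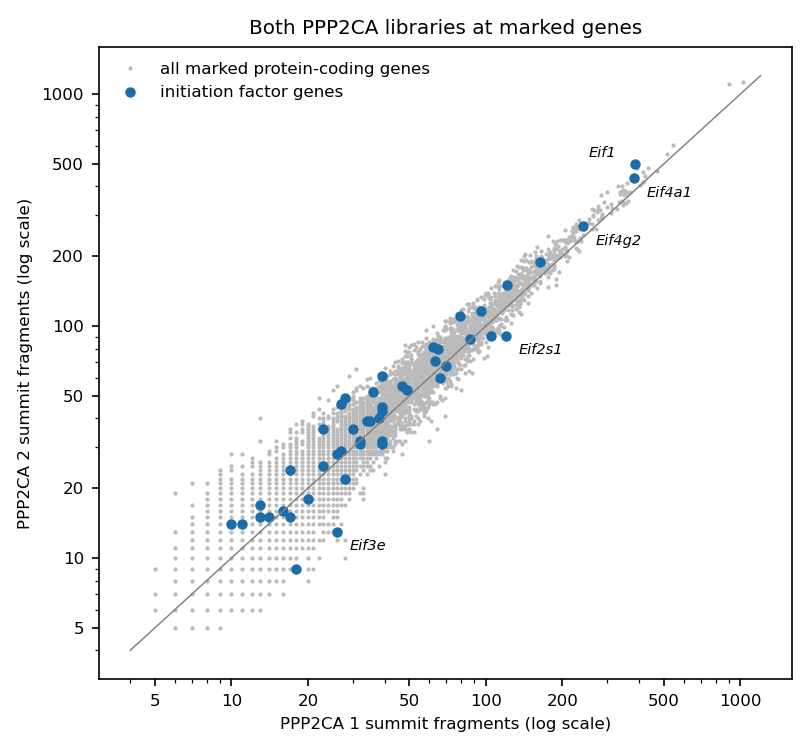
Summit fragments in PPP2CA 2 against PPP2CA 1 (both log axes) for the 47 marked initiation factor genes (blue) over all 8606 marked protein-coding genes (grey); the line marks equal values. Members follow the line, with Eif1 above it and Eif2s1 and Eif3e below.

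Closely related members often held unlike numbers of summit fragments. Beside Eif1 over Eif1b, Eif4a1 over Eif4a2 and Eif4ebp2 over Eif4ebp1, Eif4g1 was marked at its start and Eif4g3 only in its body. The Eif4g3 region held 14 fragments in each library, with summits 856 and 828 bp downstream of a start listed inside the gene. The fold was closer at Eif4a1 and Eif4a2, at 8.85 against 7.82 in PPP2CA 1 and 8.69 against 7.60 in PPP2CA 2. For Eif1 against Eif1b it was 11.7 against 7.02 and 12.4 against 6.52. For Eif4ebp2 against Eif4ebp1 it was 11.7 against 6.59 and 12.4 against 8.62. The short copies Eif3j2 and Eif4a3l1 had no peak where Eif3j1 and Eif4a3 did. Because the handling of reads that match several places is not given, a missing peak at such copies does not show missing signal. The pairs Eif1a with Eif1ax and Eif4e with Eif4e2 had overlapping fragment intervals in both libraries. The fold was 6.61 and 5.87 at Eif1a against 9.41 and 8.29 at Eif1ax. At Eif4e it was 6.77 and 7.10, against 8.97 and 8.64 at Eif4e2. The fragment intervals of Eif2s3x and Eif2s3y also overlapped in both libraries, at 38 and 27 fragments in PPP2CA 1 and 40 and 46 in PPP2CA 2. Their fold differed more, at 8.80 and 8.58 at Eif2s3x against 10.3 and 14.0 at Eif2s3y in PPP2CA 1 and 2.

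Neighbouring genes share some of these regions. At 12 of the 47 members the best region also touched the window of another protein-coding gene: Eif1a, Eif1ad, Eif2a, Eif2b1, Eif2b4, Eif2s1, Eif3i, Eif3k, Eif4a1, Eif4e1b, Eif4enif1 and Eif5b. The signal of the genes in such a pair cannot be told apart. With regions of that kind left out, 35 members (62.5%) were marked, against 27.1% of all protein-coding genes. The best regions of Eif1b, Eif3c, Eif3m, Eif4a2, Eif4e and Eif5a2 also touched the windows of non-coding genes, which these counts do not cover.

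Of other genes of translation, 34 of 42 (81.0%) were marked, against 39.5% of all protein-coding genes: 7 of 9 elongation genes, 7 of 8 of termination, recycling and rescue, 7 of 9 of poly(A) binding and helpers and 13 of 16 regulators of initiation. Eef1a1, which brings aminoacyl-tRNA to the ribosome, had 150 and 179 fragments, and Pabpc1, the cytoplasmic poly(A)-binding protein, 171 and 170. Among the regulators, Mknk2, a kinase of eIF4E, had 413 and 418 fragments and Ddit3, a target of the eIF2 stress response, 367 and 377. Ppp1r15a and Ppp1r15b, which direct the phosphatase PP1 to eIF2, had 162 and 167, and 74 and 76. Impact, a brake on GCN2, held 321 and 379 in its body with no region at a boundary. Mtor itself was lower, at 25 and 32, and Atf4 had no region without an IgG peak.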

How the data were processed

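Peaks were taken from 1 list per library, as the authors deposited them. Per the submitters' processing notes the tools were BWA, Trimmomatic, MACS2, HOMER, deepTools and ChIPseeker, on GRCm38 (mm10). Their settings, and any use of IgG in calling, are not given in the sources used here. The deposited values per peak are a fold (ratio of summit to local background), a −log10 p, a −log10 q and a score, and the fold and q were used within a library only.

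Summit fragments were solved from the deposited fold, read as fragments over background with 1 added to each, together with the deposited −log10 p, read as a Poisson tail. All values came out whole (100% of peaks, relative error up to 8.76e-06). Each list's lowest background stands for the whole genome. The fragment recovery was tested on values simulated from the same formula, which cannot show that the deposited values follow it. The library comparison was tested on simulated counts, where it missed most of the smaller changes.

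Peaks of the PPP2CA lists sharing at least 1 bp were merged into 21771 regions. Of these, 12631 were in both libraries and 12438 of those had no IgG peak. Per library, 75.5% and 71.6% of PPP2CA peaks overlapped the other list. Gene positions and names came from RefSeq GRCm38.p6, leaving out mitochondrial genes and entries below 3 Mb other than on Y, and strand came from the RefSeq promoter table. Exons, introns and UTRs were not analysed here. The protein comparison of related members was not made.

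The members, the 12 factor groups, the lists and the tests were chosen with earlier results of these data known. Named were the 3 best and the lowest marked member of each group, every unmarked member, those with an IgG peak or peaks in 1 library, and related pairs. Other members were named to account for the whole list. Groups and replicates come from the sample titles. Python 3.11.15, NumPy 2.4.6, SciPy 1.17.1, pandas 2.3.3 and Matplotlib 3.10.9 were used. Alternatives varied the peak threshold, the minimum summit, the overlap, the window, the use of IgG and the libraries.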

Additional observations from a re-analysis of the deposited data

How the results depend on the processing

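Over the 12 alternatives the number of members marked at a boundary was 35 to 49 of 56, and with gene bodies 36 to 52, against 47 and 48 in the main setting. Leaving out a library relaxes the marking rule, because 1 PPP2CA list then suffices or fewer IgG peaks exclude a region. With 1 library left out at a time the counts were 47 to 49 and 48 to 52, and no member was lost at a boundary. They therefore do not measure how stable the marking is. The share of all protein-coding genes moved along with them, from 26.5% (summits of 20 or more fragments, where 36 members were marked and 11 lost) to 43.8% (without PPP2CA 1). The 11 were Eif2ak1, Eif2b1, Eif2b3, Eif2b5, Eif3e, Eif3h, Eif3i, Eif3l, Eif3m, Eif4e1b and Eif5a2. Eif5a was gained without IgG 1, with IgG peaks kept and at a −log10 q minimum of 5. The last setting lost Eif2b3 and Eif3l, 50% reciprocal overlap lost Eif2b3 and Eif4e1b, and Eif4e was lost when both summits had to lie in the window.

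The median summit of marked members was 39 and 52.5 fragments in PPP2CA 1 and 2 with summits of 20 or more only, which leaves out low members by construction, with a median fold of 8.58 in PPP2CA 1. In PPP2CA 2 it was 44 with a −log10 q of 5 or more and 43 with reciprocal overlap. With single libraries left out, the median summit was 35 to 37 in PPP2CA 1 and 39.5 to 41.5 in PPP2CA 2, and the median fold 7.82 to 7.92 and 8.21 to 8.26. The number of members with an IgG peak was 0 with a −log10 q of 5 or more, and 0 to 1 with an IgG library left out. No paired analysis was possible because the counts and medians come from no test between groups, so there is no fit to which a replicate term could be added. Depth limits the weak members most: Eif2b3, with 10 fragments in PPP2CA 1, has an interval of 4.80 to 18.4, and the IgG lists rest on summits with a median of 4 fragments.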
